A study of Mus musculus with 54 samples.

Results

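The genes of itaconate, nitric oxide and arginine metabolism were followed in 2 kinds of brain macrophage at rest and after lipopolysaccharide (LPS), the bacterial outer membrane component used as an inflammatory stimulus. The members were 7 genes, Acod1, Slc7a2, Nos2, Ass1, Arg1, Arg2 and Odc1, taken by symbol from 33280 symbols in the count tables, of which 26332 had a count in at least 1 library. All 7 symbols were found in all 3 tables.

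Acod1 encodes the mitochondrial enzyme that diverts cis-aconitate from the tricarboxylic acid (TCA) cycle into itaconate, a metabolite that macrophages make in quantity when Toll-like receptors are engaged. Arginine, imported by cationic amino acid transporters such as that encoded by Slc7a2, is a substrate for competing enzymes: the inducible nitric oxide synthase Nos2 makes nitric oxide and citrulline from it, and the arginases Arg1 and Arg2 make urea and ornithine. Ass1 starts the conversion of citrulline back into arginine, and Odc1 turns ornithine into putrescine, the entry to polyamine synthesis.

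The libraries came from microglia (MG) and CD206+ subdural CNS-associated macrophages (sdCAMs) sorted from adult mouse brains freed of the choroid plexuses, and were sequenced as bulk RNA. WT (C57BL/6JCrl) and Ccr2-/- (B6.129S4-Ccr2tm1Ifc/J) mice were left without drug and given PBS (untreated), or were given vehicle (CTL) or the CSF1R inhibitor BLZ945 and, 8 weeks later, LPS. Reporter mice (Ccr2CreERT2/CreERT2:R26tdT/tdT) all received BLZ945 and tamoxifen, then PBS or LPS, and their sdCAMs were split into tdT+ cells, which had recombined the Ccr2-driven reporter, and tdT- cells. Cells were taken 12 hours after the injection, and 54 libraries from 24 mice made 18 groups of 3. WT and Ccr2-/- mice carry batch label 1 and reporter mice batch label 2, so batch and reporter line cannot be told apart. Because untreated mice received no vehicle, CTL+LPS and untreated mice differ in vehicle as well as in LPS.

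Each library held between 1705930 and 11330781 assigned reads. Microglial markers summed to between 9320 and 45000 CPM (counts scaled to a common library total) in MG and between 227 and 12500 in sdCAMs, and sdCAM markers to at most 30.7 CPM in MG against at least 1160 in sdCAMs. The tdT+ LPS library of mouse 5 stood apart from its group with 12500 CPM of microglial markers, against 738 to 831 CPM in the other tdT+ LPS libraries. It had 1160 CPM of sdCAM markers against 6660 to 7460 CPM. In untreated WT sdCAMs microglial markers were 12.0 to 34.9% of their level in MG of the same mouse. They were 3.61 to 8.26% after CTL+LPS and 5.04 to 24.8% after BLZ945+LPS. The part of MG RNA in the WT sdCAM values was not tested. The count columns named for the tdT- LPS library of mouse 1 and the tdT+ LPS library of mouse 7 carry the index numbers that the labels give to each other. Their Xist and Ddx3y levels also differed in kind from those of the MG of the same mouse and were like those of the other mouse. Xist and Ddx3y measured 323 and 0 CPM in the tdT- mouse 1 column and 974 and 0 CPM in MG of mouse 7. In the tdT+ mouse 7 column they measured 0 and 128 CPM, and in MG of mouse 1 0 and 58.4 CPM. Which assignment is right was not tested, so results resting on these columns are given with them exchanged where that changes them. Neutrophil markers in them went with the labelled population, at 1502 CPM in tdT- mouse 1 (281 and 763 CPM in the other tdT- LPS libraries) and 54.8 CPM in tdT+ mouse 7 (84.5 and 24.9 CPM in the other tdT+ LPS libraries). Ccr2 did not go with it in tdT- mouse 1, at 35.8 CPM against 8.00 and 3.11 CPM in the other tdT- LPS libraries. In the tdT+ LPS libraries of mice 1, 5 and 7 Ccr2 measured 25.2, 8.60 and 16.7 CPM. The Ccr2-/- LPS titles name the other cell type than the cell type labels and library names do, and the latter were used. The labels mark 6 WT sdCAM libraries with an IEG correction that they do not explain, including 2 of the untreated and all 3 of the CTL+LPS group. Ccr2 itself measured 42.96, 16.83 and 34.2 CPM in untreated WT sdCAMs and 3.02, 2.46 and 5.59 CPM in untreated Ccr2-/- sdCAMs, and it overlapped between the genotypes in MG. In CTL+LPS sdCAMs, the libraries labelled WT had less Ccr2 (0.26, 0 and 0.152 CPM) than those labelled Ccr2-/- (5.33, 2.92 and 3.17 CPM), so Ccr2 counts do not check these labels. In bulk RNA a smaller number of cells of one kind and less RNA per cell cannot be told apart, and p-values measure the spread between these mice.

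A gene was called when edgeR's quasi-likelihood test gave an adjusted p under 0.05 (Benjamini-Hochberg over all genes tested) and a log2 difference over 1 in size. The log2 differences below are fitted values, given with their standard error (SE). They rest on library scaling by trimmed means (TMM), and CPM values are plain shares of the library total. The TMM factors of the WT CTL+LPS sdCAM libraries (0.486 to 0.657 in the LPS fit) and of the tdT- LPS libraries (0.5 to 0.75) were lower than those of most other libraries. Scaling by total counts instead moved the median difference of all genes from -0.075 to -1.55 in the LPS response of WT sdCAMs, from -0.123 to -1.92 between WT sdCAMs and MG after LPS, from 0.04 to -0.755 in the LPS response of tdT- sdCAMs and from 0.113 to 1.14 between tdT+ and tdT- sdCAMs after LPS. Fold values in the text are ratios of CPM from counts summed over a group, with 95% exact intervals that cover counting error only. Where 1 group had no count, 3 counts over the group set the bound, and a fitted change against such a group is no bound.

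LPS raised Acod1 in all 7 cell populations and genotypes in which its response was fitted, and raised other members in some of them. In WT MG, 3 of 4 members tested were called, Acod1, Ass1 and Odc1, where 16.7% of all tested genes were called. In WT sdCAMs, 2 of 3 were called, Acod1 and Slc7a2, against 6.32% of all genes. In Ccr2-/- MG, 4 of 5 were called, Acod1, Arg1, Ass1 and Odc1, against 19.4%, and in Ccr2-/- sdCAMs 6 of 7, all but Ass1, against 21.5%. In reporter MG only Acod1 of 3 was called, against 1.08% of all genes. In tdT+ and in tdT- sdCAMs, 2 of 6 were called, Acod1 and Slc7a2 in both, against 13.4% and 26.5%. Every called member was higher after LPS, and members not named as tested fell under the low-count filter of that comparison.

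**Figure D1:**
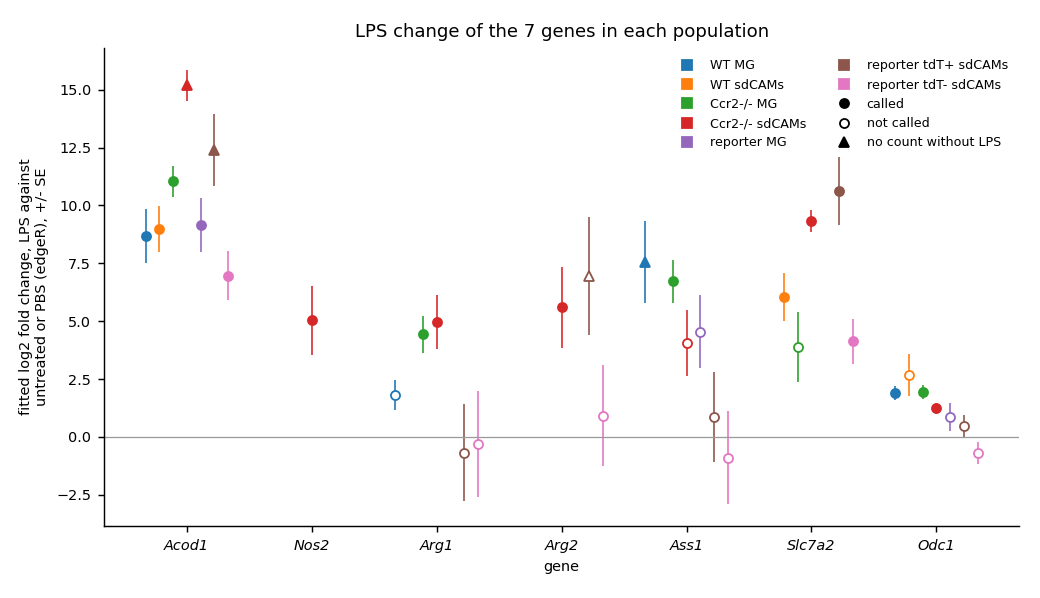
Fitted log2 change after LPS (vertical axis, with SE bars) of each member in the 7 populations in which it was tested, coloured by population. Filled symbols were called, open symbols were not, and triangles mark members with no count in the group without LPS, whose fitted change is no bound. Acod1 lies above 6 in all 7 populations, and Slc7a2 is called in all 4 sdCAM populations.

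Acod1 was close to absent without LPS. In untreated WT MG it measured 0.534, 0 and 0 CPM, and in CTL+LPS WT MG 119, 15.0 and 101 CPM. Ccr2-/- MG held 0, 0.0928 and 0 CPM untreated and 156, 66.1 and 93.8 CPM after CTL+LPS. No LPS library overlapped an untreated one in either genotype, and the library of WT mouse 4 was the lowest. The log2 increase was 8.68 (SE 1.16, edgeR adjusted p = 0.000249) in WT MG and 11.04 (SE 0.67, edgeR adjusted p = 6.22e-08) in Ccr2-/- MG.

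In WT sdCAMs Acod1 measured 0.328, 0 and 0.518 CPM untreated and 60.3, 11.7 and 118 CPM after CTL+LPS. In Ccr2-/- sdCAMs it had no count in the 3 untreated libraries and 425, 674 and 387 CPM after CTL+LPS. The 3 Ccr2-/- sdCAM libraries were above every other CTL+LPS library of the study. The log2 increase was 8.99 (SE 1.00, edgeR adjusted p = 0.0016) in WT sdCAMs, a ratio of 284 (78.5 to 2350) in CPM. Ccr2-/- sdCAMs were at least 4270-fold higher after LPS (edgeR adjusted p = 1.1e-07).

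After LPS, Ccr2-/- sdCAMs exceeded MG of the same genotype in Acod1 by a log2 difference of 2.5 (SE 0.36, edgeR adjusted p = 4.28e-05), a ratio of 4.72 (4.54 to 4.9). In WT mice the difference was 1.41 (SE 0.76, edgeR adjusted p = 0.151), beside a CPM ratio of 0.949. It was called with the mouse as a paired block (1.45, edgeR adjusted p = 0.0212) and turned to -0.30 under total-count scaling. The interaction of cell type with LPS was not called for Acod1 in either genotype (WT 0.46, SE 2.79; Ccr2-/- 4.34, SE 3.50, edgeR adjusted p = 0.557). Nor was the interaction of genotype with LPS in sdCAMs (5.49, SE 1.75, edgeR adjusted p = 0.2205).

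In reporter mice Acod1 went from 0.471, 0 and 0 CPM in PBS MG to 95.8, 149.9 and 108 CPM after LPS, and the log2 increase was 9.16 (SE 1.18, edgeR adjusted p = 0.0231). That call was lost without any 1 of the 3 LPS libraries or without PBS mouse 177 (edgeR adjusted p up to 0.167). In tdT+ sdCAMs it went from no count to 113, 164.8 and 98.7 CPM, at least 1230-fold higher, and in tdT- sdCAMs from 0, 2.54 and 0 to 68.3, 51.4 and 70.7 CPM. The log2 increase of tdT- cells was 6.97 (SE 1.07, edgeR adjusted p = 0.00033), and 12.3 without PBS mouse 175, the only one with a count. In the LPS libraries tdT+ and tdT- cells differed by -0.05, and this sign turned under total-count scaling (0.99) and with the 2 columns exchanged (0.16).

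BLZ945 given 8 weeks earlier left Acod1 uncalled in every population. WT MG held 175, 61.96 and 44.4 CPM after BLZ945+LPS and Ccr2-/- MG 229, 227 and 118 CPM, both overlapping their CTL+LPS groups. WT sdCAMs held 173, 131 and 30.8 CPM and Ccr2-/- sdCAMs 279, 577 and 338 CPM. The closest to the threshold was Ccr2-/- MG, with a difference of 0.92 (SE 0.31, edgeR adjusted p = 0.644). In the order of the 18 group means, the Ccr2-/- sdCAM groups led and overlapped each other but no other group, and the remaining LPS groups overlapped their neighbours and lay above all untreated and PBS groups.

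**Figure D2:**
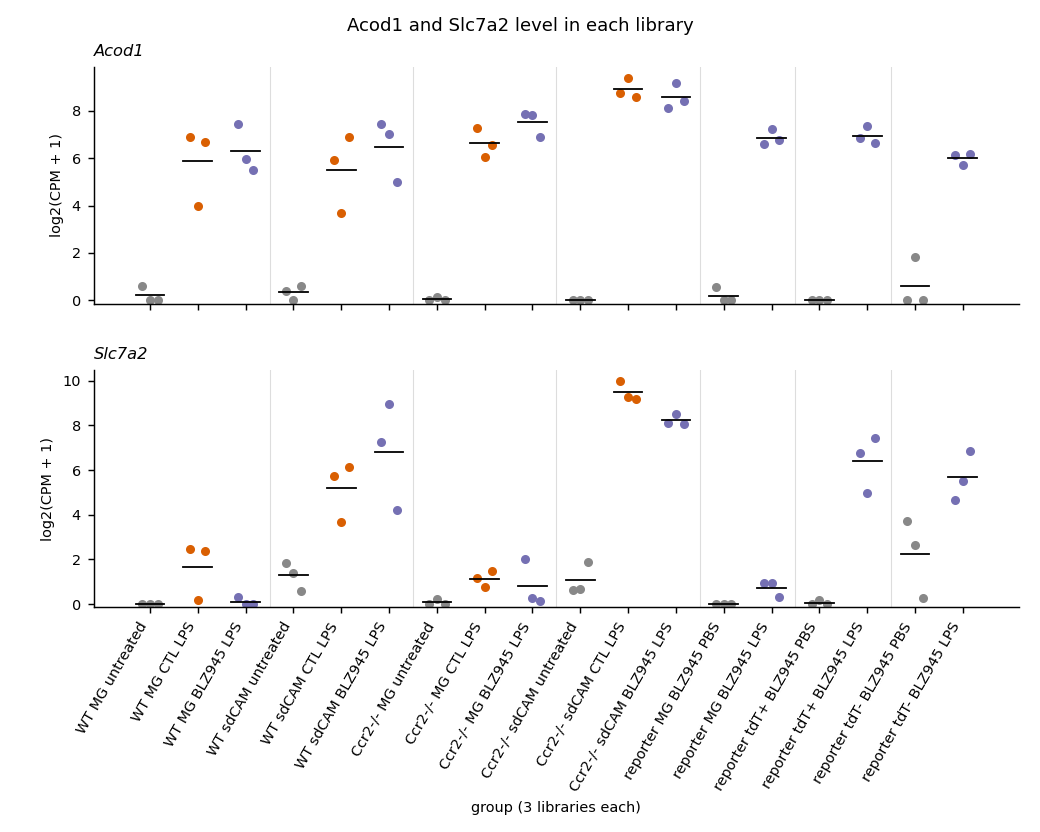
Level of Acod1 and Slc7a2 as log2(CPM + 1) (vertical axis) in the 54 libraries by population. Grey points are untreated or PBS libraries, orange CTL+LPS, purple BLZ945+LPS, and lines are group means. Acod1 is high in every LPS group, while Slc7a2 is high in the LPS groups of sdCAMs and at or below 4.54 CPM in every MG library.

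Acod1, Ass1 and Odc1 were called as higher in MG of both genotypes. The promoters of Acod1 and Ass1, which held letter patterns that were searched for, are shown. That of Odc1, which held none, is not. RefSeq promoters (GRCm38.p6) were matched for 3 of 7 members, Acod1, Ass1 and Odc1. The 250 bases before each start follow, 5′ to 3′ on the gene's strand, for Acod1 at chr14:103046762-103047011 (plus strand) and for Ass1 at chr2:31470020-31470269 (plus strand). Capitals mark GGAANTTCC and TATAAA in Acod1 and CACGTG in Ass1.
Acod1: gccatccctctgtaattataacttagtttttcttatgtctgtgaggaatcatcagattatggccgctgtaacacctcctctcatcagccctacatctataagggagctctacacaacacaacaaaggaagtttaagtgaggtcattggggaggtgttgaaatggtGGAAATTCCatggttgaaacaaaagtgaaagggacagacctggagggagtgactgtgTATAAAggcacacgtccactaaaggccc
Ass1: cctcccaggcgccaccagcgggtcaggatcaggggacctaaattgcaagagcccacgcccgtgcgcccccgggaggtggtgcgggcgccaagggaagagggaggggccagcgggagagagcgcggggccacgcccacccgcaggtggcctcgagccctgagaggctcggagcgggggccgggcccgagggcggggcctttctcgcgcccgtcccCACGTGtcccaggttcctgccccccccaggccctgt
The Acod1 matches begin at positions -85 and -28 from the start, and that of Ass1 at -36. In the window of 250 bases before to 50 after the start, on both strands, GGAANTTCC stood in 0.928% of 32851 promoters, TATAAA in 13.6% and CACGTG in 7.15%, and the matches shown did not overlap. GAAA repeated after a gap of 2 bases (3.44% of promoters), TTCNNNGAA (8.3%) and TGANTCA (7.81%) were also searched and were not found in these windows, and Odc1 held none of the 6. The GC content of the window was 47% for Acod1, 74% for Ass1 and 78% for Odc1, with a median of 52.7% over all promoters. The letters of GGAANTTCC were chosen after the Acod1 sequence had been seen, and a match is a description of letters.

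Slc7a2, the arginine transporter, was higher in sdCAMs than in MG of untreated WT and Ccr2-/- mice. Untreated WT sdCAMs held 2.62, 1.60 and 0.518 CPM, and untreated WT MG had no count. Ccr2-/- sdCAMs held 0.560, 0.616 and 2.68 CPM untreated, and Ccr2-/- MG 0, 0.186 and 0 CPM. The populations did not overlap in either genotype. In these untreated mice 2 of 6 members tested were called between WT sdCAMs and MG, against 17.1% of all genes, and 1 of 7 between Ccr2-/- sdCAMs and MG, against 15%. Slc7a2 was called in both, 6.55 higher in WT sdCAMs (SE 1.95, edgeR adjusted p = 0.0308) and 3.95 in Ccr2-/- sdCAMs (SE 1.32, edgeR adjusted p = 0.0376). With the mouse as a paired block the Ccr2-/- call was lost (3.85, edgeR adjusted p = 0.062). Without single libraries, the WT call was lost for untreated MG mice 9, 14 and 15 and sdCAM mice 9 and 14 (edgeR adjusted p up to 0.142), and the Ccr2-/- call for MG mice 1m, 3m and 5f and sdCAM mouse 5f (up to 0.221).

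After CTL+LPS, Slc7a2 measured 52.6, 11.7 and 69.1 CPM in WT sdCAMs and 1009, 621 and 586 CPM in Ccr2-/- sdCAMs. Both groups lay wholly above their untreated libraries, and the lowest Ccr2-/- library exceeded every other library of the study. The log2 increase was 6.04 in WT sdCAMs (SE 1.02, edgeR adjusted p = 0.00942) and 9.32 in Ccr2-/- sdCAMs (SE 0.47, edgeR adjusted p = 4.08e-08), or ratios of 30.6 (17.8 to 57.7) and 574 (406 to 839). The WT call was lost without untreated mouse 14 (edgeR adjusted p = 0.0523), and it held within the marked libraries (5.6, edgeR adjusted p = 0.000624). Neutrophil markers summed to between 129 and 1140 CPM in CTL+LPS WT sdCAMs and between 76.1 and 120 CPM in CTL+LPS Ccr2-/- sdCAMs. Of the 9 markers, 4 had no count in the WT group (Ly6g, Retnlg, Ngp and Ltf) and 2 in the Ccr2-/- group (Ly6g and Retnlg). The part of neutrophil RNA in the sdCAM values was not tested. In the order of Slc7a2 means, CTL+LPS Ccr2-/- sdCAMs (739 ± 235 CPM, SD, n = 3) stood alone, and no other neighbours were apart.

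MG stayed far below this. WT MG held 4.54, 0.121 and 4.21 CPM after CTL+LPS, and Ccr2-/- MG 1.24, 0.705 and 1.80 CPM. Slc7a2 was below the filter in the WT MG fit and not called in Ccr2-/- MG (3.90, SE 1.51, edgeR adjusted p = 0.0608), where DESeq2 called it (adjusted p = 0.0417). sdCAMs exceeded MG after LPS by 5.66 in WT mice (SE 1.03, edgeR adjusted p = 0.000974) and by 9.46 in Ccr2-/- mice (SE 0.64, edgeR adjusted p = 2.2e-09), the latter a ratio of 582 (426 to 819). Slc7a2 was the 1 member of 6 tested that was called between WT sdCAMs and MG after LPS, against 35.4% of all genes, and 1 of 4 called members of 7 in Ccr2-/- mice, against 18.4%.

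The MG values can be set beside the sdCAM transcripts in the same libraries. In Ccr2-/- CTL+LPS mice Slc7a2 in MG was 0.122, 0.113 and 0.307% of its level in sdCAMs of the same mouse, and the sdCAM markers were 0.192, 0.185 and 0.225%. In WT mice Slc7a2 was 8.62, 1.03 and 6.1%, above the sdCAM markers at 0.305, 0.254 and 0.226% in each mouse. The part of sdCAM RNA in the MG values was not tested.

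The LPS increase of Slc7a2 was not called as different between the cell types by edgeR. The interaction was -0.88 in WT mice (SE 1.10) and 5.51 in Ccr2-/- mice (SE 3.18, edgeR adjusted p = 0.353), the latter called by DESeq2 alone (5.27, adjusted p = 0.021). No member was called in these interactions by edgeR, where 1.32% of all genes were called in WT and 6.88% in Ccr2-/- mice. Between genotypes, the LPS increase in sdCAMs was 3.43 larger in Ccr2-/- mice (SE 1.13, edgeR adjusted p = 0.2205), and 3.89 with the marked libraries alone on the WT side (edgeR adjusted p = 0.0228). By edgeR no member was called in the genotype interaction in MG or in sdCAMs, against 0% of all genes in both. At an unadjusted p under 0.05 there were 503 genes in MG and 1792 in sdCAMs, and DESeq2 called 1 and 247.

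BLZ945+LPS gave 154, 496 and 17.8 CPM of Slc7a2 in WT sdCAMs and 278, 368 and 268 CPM in Ccr2-/- sdCAMs. The Ccr2-/- BLZ945+LPS libraries lay wholly below the CTL+LPS libraries, at a ratio of 0.417, and the log2 difference of -1.27 was not called (SE 0.31, edgeR adjusted p = 0.308). The WT groups overlapped. No member was called between BLZ945 and CTL after LPS in any population. The calls over all genes were 0.0763% in WT MG (9 genes, 49 by DESeq2), 0.0173% in Ccr2-/- MG (2, 27 by DESeq2) and 0% in both sdCAM populations, where edgeR found 758 WT and 998 Ccr2-/- genes at an unadjusted p under 0.05 and DESeq2 called 11 and 63.

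In reporter sdCAMs without LPS, Slc7a2 stood at 12.3, 5.28 and 0.218 CPM in tdT- cells and at 0, 0.116 and 0 CPM in tdT+ cells. tdT- cells were higher in every library, a ratio of 163 that rests on 1 count in tdT+ cells, and the difference was not called (-6.68 for tdT+ cells, SE 1.44, edgeR adjusted p = 0.247), although DESeq2 called it (adjusted p = 0.000741), as did edgeR without tdT- mouse 177 (adjusted p = 0.0212). After LPS both were high, tdT+ cells at 107, 30.5 and 171 CPM and tdT- cells at 24.1, 45.02 and 116 CPM. The groups overlapped after LPS, and the difference was -0.21. As labelled the CPM ratio of tdT+ over tdT- cells was 1.59 (1.45 to 1.75). With the 2 columns exchanged it was 0.483 (0.435 to 0.536). Both ratios include the tdT+ library of mouse 5, which had raised microglial markers and the 30.5 CPM of Slc7a2. It held 5467630 reads, against 2060240 in tdT+ mouse 1 and 2755627 in tdT+ mouse 7, and so weighs most in the summed counts as labelled. The ratios were not computed without it. No member was called between tdT+ and tdT- cells after PBS, against 0.0236% of all genes (3 genes, 81 by DESeq2), or after LPS, against 10.6% (1352 genes, 1911 by DESeq2). The counts over all genes after LPS are given as labelled only and rest on those 2 columns.

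Slc7a2 was called as higher after LPS in tdT+ cells (10.61, SE 1.47, edgeR adjusted p = 0.000333) and in tdT- cells (4.13, SE 0.97, edgeR adjusted p = 0.00514). The increase was 6.48 larger in tdT+ cells (SE 1.72, edgeR adjusted p = 0.0393), where 5.17% of all genes were called. This interaction was added after the values had been seen, and with the 2 columns exchanged it was 5.25 and not called (edgeR adjusted p = 0.9998), where 0% of all genes were called. Summed over tdT+ and tdT- cells of each mouse, 2 of 6 members were called after LPS, Acod1 (7.79, SE 1.13, edgeR adjusted p = 0.00152) and Slc7a2 (4.80, SE 1.00, edgeR adjusted p = 0.00777), against 25.1% of all genes. Reporter MG held no Slc7a2 count after PBS and 0.937, 0.896 and 0.249 CPM after LPS, at least 6.91-fold higher.

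Nos2, the inducible nitric oxide synthase, stayed low everywhere and was tested in 1 of 7 LPS responses. Ccr2-/- sdCAMs held 0, 0 and 0.122 CPM untreated and 1.27, 1.01 and 2.59 CPM after CTL+LPS, without overlap. The increase was called (5.05, SE 1.49, edgeR adjusted p = 0.0228), at a ratio of 40.3 (6.85 to 1630). The call was lost without untreated mouse 1m or 3m or without LPS mouse V4f (edgeR adjusted p up to 0.0862). The top library of the study was a WT BLZ945+LPS sdCAM library, mouse 11, at 22.3 CPM, and the other 2 of that group had no count. Its value came from 38 counts in the library with the fewest reads, 1705930.

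In the remaining groups Nos2 was between 0 and 5.33 CPM. CTL+LPS WT sdCAMs held 5.33, 0 and 2.88 CPM, CTL+LPS WT MG 1.73, 0.121 and 0 CPM, and tdT+ LPS sdCAMs 3.88, 0 and 1.81 CPM. At least 1 library was at 0 in each of these groups, which therefore overlapped their controls. Per kilobase of exon (4.41 kb for Nos2 and 2.62 kb for Acod1), the mean level of Acod1 was above that of Nos2 in every LPS group. In the order of group means, no neighbouring groups were apart for Nos2, Ass1, Arg1, Arg2 or Odc1.

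Ass1, which recycles citrulline, was called as higher after LPS in WT and Ccr2-/- MG, and just missed the threshold in Ccr2-/- sdCAMs. WT MG had no count untreated and 6.37, 0.121 and 1.87 CPM after CTL+LPS, and Ccr2-/- MG went from 0, 0 and 0.120 to 7.24, 3.72 and 4.89 CPM. Both LPS groups lay above their untreated libraries. The increase was called in WT MG (7.56, SE 1.78, edgeR adjusted p = 0.0097), where it was at least 23.6-fold, and in Ccr2-/- MG (6.72, SE 0.93, edgeR adjusted p = 8.5e-05). In reporter MG it was 4.55 and not called (SE 1.58, edgeR adjusted p = 0.24), from 0, 0.102 and 0.647 to 9.72, 6.66 and 4.6 CPM, although the groups did not overlap, and DESeq2 called it (adjusted p = 0.0457).

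In sdCAMs after CTL+LPS, Ass1 measured 0.260, 0 and 0.911 CPM in WT and 1.27, 0.806 and 0.352 CPM in Ccr2-/- mice. The Ccr2-/- increase missed the threshold (4.05, SE 1.43, edgeR adjusted p = 0.0506). It was called by DESeq2 (adjusted p = 0.025), and by edgeR with a mean count of at least 10 (adjusted p = 0.0449) and without untreated mouse 3m (adjusted p = 0.0493). After LPS the difference of Ccr2-/- sdCAMs from MG was -2.43 and was called as lower (SE 0.76, edgeR adjusted p = 0.023), and this call was lost without sdCAM mouse V2m or V4f or MG mouse V1m (edgeR adjusted p = 0.0635 to 0.0851). The interaction of cell type with LPS was not called (-2.56, edgeR adjusted p = 0.570). Ass1 in these sdCAMs was 17.5, 21.6 and 7.2% of its level in MG of the same mouse, where microglial markers were 6.05, 7.25 and 9.37%. The part of MG RNA in the sdCAM values was not tested.

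Ass1 was not called between BLZ945+LPS and CTL+LPS in any population. In 3 populations every BLZ945+LPS library lay above the CTL+LPS libraries, and the share of all genes separated in this way was not computed. The BLZ945+LPS libraries held 8.53, 11.8 and 11.0 CPM in WT MG, 32.9, 12.0 and 9.60 CPM in Ccr2-/- MG and 5.13, 2.64 and 3.13 CPM in Ccr2-/- sdCAMs. The ratios to CTL+LPS were 3.62 (2.8 to 4.73), 3.23 (2.7 to 3.87) and 4.61 (2.87 to 7.73), and the log2 differences 1.91, 1.84 and 2.17 (edgeR adjusted p = 0.754, 0.619 and 0.648). WT sdCAMs, at 16.03, 3.52 and 0.133 CPM, overlapped their CTL+LPS group.

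In tdT+ LPS sdCAMs Ass1 was 0, 10.8 and 0 CPM, and all 59 counts of the group came from mouse 5, the library with raised microglial markers. Its Ass1 level was 162% of the level in the MG library of mouse 5, and its microglial markers were 82.6%. The tdT+ response was not called (0.86, SE 1.95, edgeR adjusted p = 0.822), and it was -6.39 without mouse 5 (edgeR adjusted p = 0.22).

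**Figure D3:**
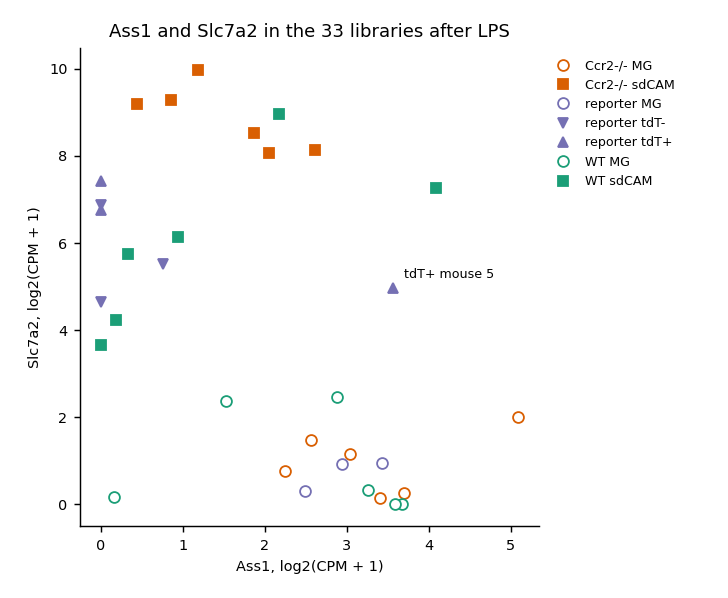
Slc7a2 (vertical axis) against Ass1 (horizontal axis), both as log2(CPM + 1), in the 33 libraries taken after LPS, coloured by genotype with open circles for MG and filled symbols for sdCAMs. MG libraries lie at the bottom with Slc7a2 at or below 4.54 CPM, sdCAM libraries at the top with at least 11.7 CPM, and the labelled tdT+ library of mouse 5 has 10.8 CPM of Ass1.

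Arg1, the cytosolic arginase, was called as higher after LPS in both populations of Ccr2-/- mice and reached at most 21.4 CPM in any library. Ccr2-/- MG held 0.108, 0.557 and 0 CPM untreated and 3.35, 4.63 and 9.09 CPM after CTL+LPS, and Ccr2-/- sdCAMs 0, 0 and 0.365 and then 4.18, 2.62 and 4.46 CPM. Neither pair of groups overlapped. The increase was 4.43 in MG (SE 0.79, edgeR adjusted p = 0.000595) and 4.96 in sdCAMs (SE 1.15, edgeR adjusted p = 0.00623), and 8.16 in sdCAMs without untreated mouse 5f, the only one with a count. In WT MG, from 1.73, 1.27 and 0.111 to 4.64, 4.47 and 2.22 CPM, the difference of 1.79 missed the threshold (SE 0.64, edgeR adjusted p = 0.0522), and it was called in 5 of 13 alternatives, among them DESeq2 (adjusted p = 0.014) and edgeR without untreated mouse 9 (adjusted p = 0.0408) or LPS mouse 6 (adjusted p = 0.0476). The interaction of genotype with LPS in MG was 2.68 and not called (SE 1.10, edgeR adjusted p = 1.0).

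Untreated WT sdCAMs had no Arg1 count, and the fitted difference from MG was called as lower (-5.44, SE 1.80, edgeR adjusted p = 0.0477), at least 2.46-fold lower in CPM. This call was lost in 12 of 15 alternatives, among them the paired block (edgeR adjusted p = 0.176). After CTL+LPS the WT sdCAMs held 0.649, 0.838 and 1.21 CPM, all below WT MG, at a CPM ratio of 4.22 for MG over sdCAMs, and the fitted difference was -0.28 (SE 0.95, edgeR adjusted p = 0.828) or -2.04 under total-count scaling (edgeR adjusted p = 0.116). In Ccr2-/- mice the corresponding difference was -0.33 and the groups overlapped.

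After BLZ945+LPS, Arg1 stood at 9.29, 12.6 and 14.4 CPM in WT MG, all above CTL+LPS, at a ratio of 3.22, and the difference of 1.71 was not called (SE 0.57, edgeR adjusted p = 0.601). Ccr2-/- MG at 21.4, 15.2 and 7.49 CPM and Ccr2-/- sdCAMs at 18.1, 2.85 and 16.9 CPM overlapped their CTL+LPS groups. Reporter MG had no count after PBS and 16.2, 4.22 and 1.12 CPM after LPS, at least 73.1-fold higher, and Arg1 was below the filter of that fit. tdT+ sdCAMs held 2.77, 0 and 2.15 CPM after PBS and 1.46, 2.20 and 0 after LPS (-0.69, not called).

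Arg2, the mitochondrial arginase, reached at most 4.82 CPM in any library. Ccr2-/- sdCAMs held 0.112, 0.123 and 0 CPM untreated and 4.82, 3.02 and 4.46 CPM after CTL+LPS. The groups did not overlap, and the increase of 5.6 was called (SE 1.75, edgeR adjusted p = 0.0303), at a ratio of 50.9 (13.7 to 426), but it was lost when any 1 of the 6 libraries was left out (edgeR adjusted p = 0.0587 to 0.0948). These sdCAMs exceeded Ccr2-/- MG, at 0, 0 and 0.200 CPM, by 5.95 (SE 1.82, edgeR adjusted p = 0.0205), a call lost without MG mouse V1m or V2m (edgeR adjusted p = 0.0924 and 0.0927). The interaction of cell type with LPS was 6.22 and not called (SE 2.60, edgeR adjusted p = 0.171).

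tdT+ sdCAMs went from no Arg2 count to 3.88, 2.01 and 2.54 CPM after LPS, at least 22.7-fold higher, and the fitted response was not called (6.96, SE 2.55, edgeR adjusted p = 0.0899). tdT- sdCAMs held 0, 0 and 0.934 CPM after LPS, below every tdT+ library, at a ratio of 14.2 (4.35 to 73.3) for tdT+ over tdT-. With the 2 columns exchanged the groups overlapped and the ratio was 2.25 (0.997 to 5.42). WT sdCAMs had 1 library above 0 after CTL+LPS, at 0.304 CPM, and WT MG ranged from 0.117 to 1.40 CPM over all 9 libraries.

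Odc1, the putrescine-forming decarboxylase, had a count in every library. Untreated WT MG held 14.0, 10.4 and 12.8 CPM and CTL+LPS WT MG 70.6, 27.7 and 48.3 CPM. Ccr2-/- MG went from 13.8, 8.35 and 23.8 to 59.2, 49.3 and 73.8 CPM, and Ccr2-/- sdCAMs from 25.5, 32.6 and 25.9 to 53.1, 56.7 and 68.6 CPM. None of these groups overlapped. The log2 increase was 1.89 (SE 0.30, edgeR adjusted p = 0.000771), 1.93 (SE 0.32, edgeR adjusted p = 0.000333) and 1.23 (SE 0.25, edgeR adjusted p = 0.0026), or ratios of 4.01, 4.15 and 2.13.

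WT sdCAMs held 3.28, 0.401 and 11.4 CPM of Odc1 untreated and 13.9, 6.70 and 9.87 CPM after CTL+LPS, which overlapped. The difference of 2.67 was not called (SE 0.90, edgeR adjusted p = 0.0942), and it was 1.03 under total-count scaling. DESeq2 called it (adjusted p = 0.0204), as did edgeR with the mark as a covariate (3.46, adjusted p = 0.0259) or within the marked libraries (3.68, adjusted p = 0.0361). Between WT sdCAMs and MG after LPS, the difference was -0.41 (edgeR adjusted p = 0.613) or -2.25 under total-count scaling (edgeR adjusted p = 0.0139). Reporter MG, from 20.6, 9.86 and 33.0 to 53.5, 44.9 and 35.2 CPM, did not overlap and was not called (0.87, SE 0.59, edgeR adjusted p = 0.622).

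In tdT+ sdCAMs Odc1 went from 34.2, 23 and 24.4 CPM to 56.8, 39.9 and 39.6 CPM, and in tdT- sdCAMs from 28.6, 25.7 and 16.99 to 11.9, 6.4 and 7.16 CPM. As labelled, the tdT+ libraries were higher after LPS and the tdT- libraries lower, without overlap in either, and with the 2 columns exchanged both overlapped (ratios of 1.16 in tdT+ and 0.535 in tdT- cells). Neither response was called with TMM scaling (0.49 and -0.68, edgeR adjusted p = 0.551 and 0.311), and the tdT- response was called as lower under total-count scaling (-1.48, edgeR adjusted p = 0.0308). After LPS tdT+ exceeded tdT- cells by 1.39 (SE 0.49, edgeR adjusted p = 0.0834), by 2.42 under total-count scaling (edgeR adjusted p = 0.00263), and by 0.75 with the 2 columns exchanged (edgeR adjusted p = 0.9). Neutrophil markers summed to between 281 and 1500 CPM in the tdT- LPS libraries and between 24.9 and 84.5 CPM in the tdT+ LPS libraries. Of the 9 markers, 5 had no count in the tdT- LPS group (Ly6g, Retnlg, Ngp, Ltf and Cxcr2). In the tdT+ LPS group 6 had none (S100a9, Ly6g, Retnlg, Camp, Ngp and Ltf). The part of neutrophil RNA in these values was not tested.

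**Figure D4:**
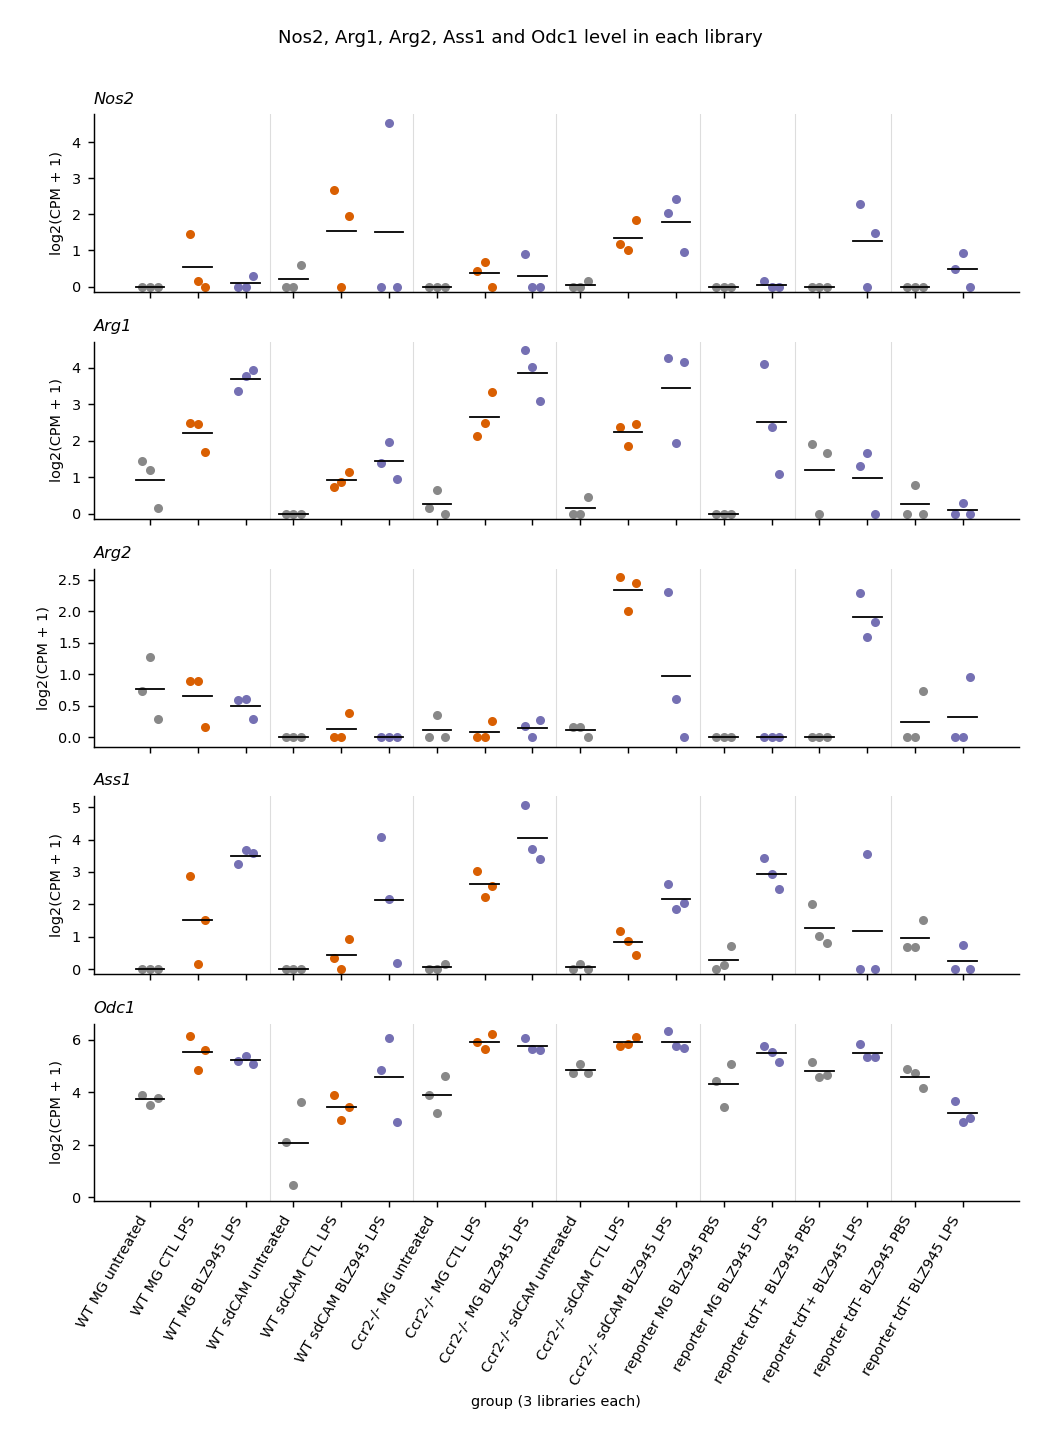
Levels of Nos2, Ass1, Arg1, Arg2 and Odc1 as log2(CPM + 1) (vertical axis) in the 54 libraries by population. Grey points are untreated or PBS libraries, orange CTL+LPS, purple BLZ945+LPS, and lines are group means. Odc1 is above 0 in every library, and Ass1 reaches 32.9 CPM in a BLZ945+LPS library of Ccr2-/- MG.

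The related genes were followed in 5 lists that leave out the members, beside which the shares of all genes called higher and lower were 9.08% and 7.65% in WT MG, 10.5% and 8.89% in Ccr2-/- MG, and 10.9% and 10.6% in Ccr2-/- sdCAMs. Of 18 TCA cycle and itaconate genes tested, 1 rose and 1 fell in MG of each genotype, and 1 rose and 2 fell in Ccr2-/- sdCAMs. Idh1, the cytosolic isocitrate dehydrogenase, fell in all 4 of the WT and Ccr2-/- responses, with log2 changes of -1.12, -2.21, -1.27 and -2.52 in WT MG, WT sdCAMs, Ccr2-/- MG and Ccr2-/- sdCAMs (SE 0.26, 0.50, 0.29 and 0.40). Idh3a, a subunit of the mitochondrial NAD-dependent enzyme, rose by 1.54 in WT MG, 1.37 in Ccr2-/- MG and 1.21 in Ccr2-/- sdCAMs (SE 0.21, 0.16 and 0.19).

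Of 13 genes for nitric oxide cofactors and signalling, 7 were tested in WT MG, where 1 fell, and 9 in Ccr2-/- sdCAMs, where 2 rose and 1 fell. Gch1, which starts synthesis of the Nos2 cofactor tetrahydrobiopterin, rose by 2.49 in Ccr2-/- MG (SE 0.36) and 1.89 in Ccr2-/- sdCAMs (SE 0.28). Ddah2, a dimethylarginine hydrolase family member, fell in WT MG (-1.72), Ccr2-/- MG (-1.65) and Ccr2-/- sdCAMs (-2.35). Of 18 urea cycle and arginine transport genes, 2 of 13 tested rose in WT MG and 3 of 11 rose in Ccr2-/- sdCAMs, where 1 fell. Slc7a1, the constitutive cationic amino acid transporter, rose in MG (2.15 in WT, 2.73 in Ccr2-/-) as well as in Ccr2-/- sdCAMs (4.21), tdT+ (5.11) and tdT- (3.68) cells, and was 1.70 in WT sdCAMs without a call. Gatm, which uses arginine for creatine synthesis, fell by 2.48 in Ccr2-/- sdCAMs and was 0.66 and 0.72 in MG, without a call.

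Of 15 polyamine genes, 4 rose in WT MG and 3 in Ccr2-/- MG, with none falling, and 3 rose and 4 fell in Ccr2-/- sdCAMs. Eif5a, whose protein carries the spermidine-derived hypusine, and Azin1, an inhibitor of the Odc1 antizyme, rose in MG of both genotypes and in Ccr2-/- sdCAMs by 1.12 to 1.79. The upstream list showed 8 higher and 1 lower of 15 tested in MG of each genotype, and 8 higher and 1 lower of 16 in Ccr2-/- sdCAMs. Nfkbia, the NF-kappaB inhibitor, rose by 2.65 to 3.94 and Cebpb, a transcription factor of macrophage activation, by 2.71 to 3.21 over the 4 responses. The median log2 change of the upstream genes lay between 0.495 and 1.05 in these 4 responses, beside medians of -0.08 to 0.02 over all genes. Hif1a, the oxygen-regulated transcription factor of glycolytic genes, was called in Ccr2-/- sdCAMs (2.36, SE 0.26) and stood at 0.20 to 0.71 in the other 3.

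**Figure D5:**
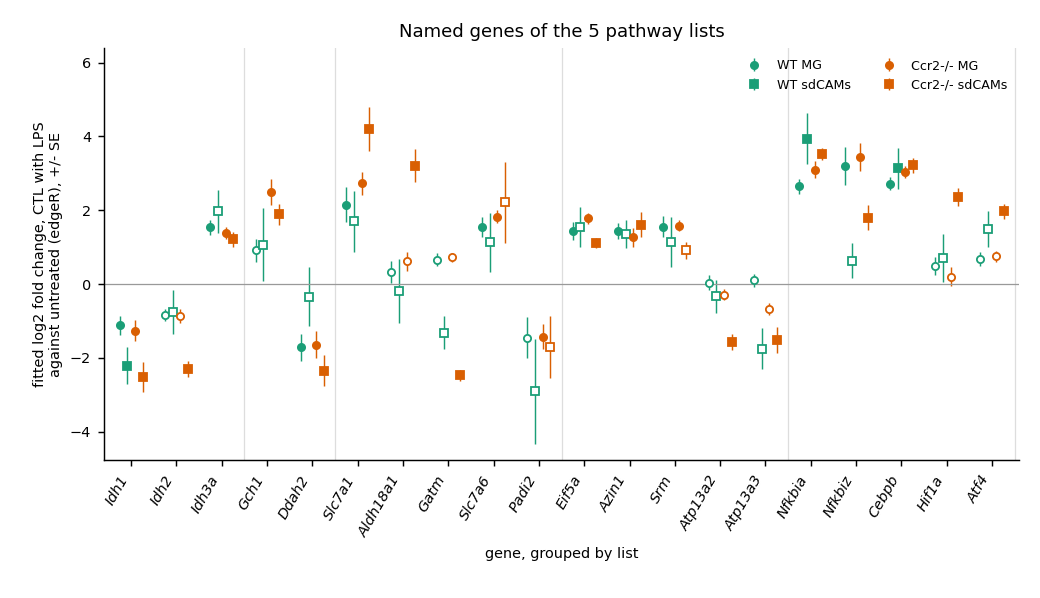
Fitted log2 change after LPS of the pathway genes named in the text (vertical axis, with SE bars) in MG and sdCAMs of both genotypes. Filled symbols were called. Nfkbia and Cebpb lie above 2 in all 4 populations and Idh1 below -1.

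The genes whose group means followed each member most closely were ranked by Pearson's r of log2(CPM + 1) over the 18 group means, among 10755 genes, as a description without a test, since all groups share the same contrast of LPS with no LPS. Those most like Acod1 were Tarm1 (r = 0.984), Il1rn (0.98), which encodes the interleukin-1 receptor antagonist, and Fcgr4 (0.977), an Fc receptor. Among those most like Slc7a2 were Steap4 (0.983), a metalloreductase, and Prss22 (0.966). Nos2 was followed by Ankrd66, Ptger2 and Mrap (0.878 to 0.927), Arg1 by Ppa1, Ddx39a and Slc35e4 (0.887 to 0.892), Ass1 by Cspg4, Mettl22 and Kcnab3 (0.868 to 0.893) and Odc1 by Timm23, Parl and Hnrnpab (0.946 to 0.958). Arg2 was below the 5 CPM needed in a group. Nos2 reached that level only in BLZ945+LPS WT sdCAMs (mean 7.43 CPM), through the 1 library of mouse 11 at 22.3 CPM. Its r values, also that with Slc7a2, include that library and were not computed without it. Among the members themselves, Arg1 and Ass1 (r = 0.852) and Nos2 and Slc7a2 (0.844) were the pairs most alike, and Ass1 and Slc7a2 were unrelated in these means (0.0462).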

How the data were processed

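Bulk RNA-seq libraries of MG and sdCAMs were grouped by the labels' cell type, genotype and treatment. The authors deposited raw counts per gene in 3 tables. The submitters' processing notes name bcl2fastq 2.20, STAR 2.7.11a, featureCounts 2.0.8 and DESeq2 1.46.0, and the strand setting is not given in the sources used here. Reads shared with overlapping genes could therefore not be told apart.

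From these counts, edgeR 4.0.16 (R 4.3.3) was run after filterByExpr and TMM scaling, one fit per set of groups, with two-sided quasi-likelihood tests over all genes. All named genes are the 7 members, up to 5 called genes of each pathway list with the largest change in Ccr2-/- mice and at least 10 CPM in 1 group, and the 3 genes most like each member. One of the latter is not reported here. The members and lists were chosen with earlier results of these data known. The scripts were tested on simulated data. Alternatives were DESeq2 1.42.0, other scalings, other filters, exchanged columns, the IEG mark, leaving out single libraries and the mouse as a block.

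MG and sdCAMs, and tdT+ and tdT- cells, came from the same mouse by the labels. Deviations from the group means correlated in 18 MG and sdCAM pairs between -0.153 and 0.363 (median 0.122) and in 6 tdT+ and tdT- pairs between 0.099 and 0.235 (median 0.12).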

Additional observations from a re-analysis of the deposited data

Results flagged for a closer look

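The LPS change differed between MG and sdCAMs by a test of the difference itself for several genes related to the members. The test was edgeR's interaction of cell type with LPS, adjusted over all genes. It called 1.32% of all genes in WT and 6.88% in Ccr2-/- mice. The related genes were named for a large called LPS change in Ccr2-/- MG or sdCAMs. The Ccr2-/- interaction uses the same libraries, so its calls among them are a description. In both genotypes the change of Gatm, the arginine-using enzyme of creatine synthesis, was lower in sdCAMs than in MG, by -2.07 in WT mice and by -3.17 in Ccr2-/- mice on the log2 scale. In Ccr2-/- mice, Aldh18a1, which starts proline and ornithine synthesis from glutamate, differed by 2.62, Hif1a by 2.19 and Atf4, a transcription factor of the amino acid response, by 1.25, all higher in sdCAMs. Idh2 (-1.41), the mitochondrial NADP-dependent isocitrate dehydrogenase, and Atp13a2 (-1.25), a lysosomal polyamine exporter, were lower there.

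Odc1 was flagged in reporter sdCAMs after its values had been seen, where its mean CPM after LPS over that after PBS was 1.67 in tdT+ and 0.357 in tdT- cells. As labelled, all LPS libraries of tdT+ cells lay above, and all of tdT- cells below, their PBS libraries, although neither response was called. With TMM scaling the difference between the responses was 1.17 and was not called (SE 0.67, edgeR adjusted p = 0.367), and with total-count scaling it was 2.22 (edgeR adjusted p = 0.0390). With the columns of tdT- mouse 1 and tdT+ mouse 7 exchanged, both responses overlapped and the difference was 0.52 (SE 0.81, edgeR adjusted p = 0.9998). By total counts, as labelled, the median log2 change of all genes after LPS was also opposite, at 0.284 in tdT+ and -0.755 in tdT- cells. The share of all genes with opposite changes without overlap was not computed.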

How the results depend on the processing

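Over the alternatives that kept all libraries, 219 values of called members kept their direction and their call, 8 lost the call and 0 turned. Over those leaving out a library, 147 kept it, 33 lost it and 0 turned. Of the values not called, 17 and 4 gained a call. Counts of called members moved in these comparisons. In Ccr2-/- MG the 4 became 5 under DESeq2. In Ccr2-/- sdCAMs the 6 became 7 under DESeq2 and a mean count of at least 10, and 5 with only the libraries compared, with 4 to 5 on leaving out 1 library (Arg2 in all 6, Nos2 in 3). In WT MG the 3 became 5 under the study's low-count rule, and leaving out 1 library gave 3 to 5 (5 without untreated mouse 9). In WT sdCAMs Odc1 gained a call under DESeq2, with the IEG mark as a covariate and within the marked libraries, and leaving out 1 library gave 1 to 2. In reporter MG DESeq2 gave 2 and leaving out 1 library 0 to 1. DESeq2 gave 1 in the Ccr2-/- interaction of cell type with LPS. Between untreated WT sdCAMs and MG, the 2 became 1 under DESeq2, median-of-ratios scaling, total-count scaling, the study's low-count rule, the IEG mark as a covariate and the replicate block of mouse, and 0 when only the libraries compared were fitted, with 0 to 2 on leaving out 1 library. In untreated Ccr2-/- mice the 1 became 2 with no fold limit, 0 with only the libraries compared, and 0 to 1 on leaving out 1 library. After LPS the WT count of 1 became 2 under total-count scaling and under the replicate block, and the Ccr2-/- count of 4 became 2 to 4 on leaving out 1 library (2 without MG mouse V1m). The genotype interaction in sdCAMs gave 1 within the marked libraries. Between tdT+ and tdT- cells, 0 became 1 after PBS under DESeq2 and the low-count rule and 0 to 1 on leaving out 1 library, and 1 after LPS under DESeq2 and total-count scaling. Acod1 turned to -0.30 between WT sdCAMs and MG after LPS under total-count scaling, and between tdT+ and tdT- cells after LPS to 0.99 under total-count scaling, 0.16 with the columns exchanged, and -0.20 to 0.12 on leaving out 1 library (0.0073 and 0.12 without tdT+ mice 1 and 7). The cause was not tested. The replicate block changed no other call than those given here and in the text.

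Total-count scaling and the tdT by LPS interaction were chosen after seeing the data. Nos2, Arg2 and, in sdCAMs, Ass1 had groups with only a few counts at library totals of 1705930 to 11330781 reads, and the cause of the calls lost without single libraries was not tested. Leaving out a library leaves pairs in that group, whose spread is pooled with the other groups of the fit.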

Other observations

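Related genes in the reporter sdCAMs were counted as labelled and under TMM scaling. Under it the median LPS change of all genes was 0.04 in tdT- cells against -0.755 by total counts. The shares of all genes called higher and lower were 14.5% and 12% in tdT- cells and 7.54% and 5.82% in tdT+ cells. Of 18 TCA cycle and itaconate genes tested, 8 fell and 1 rose in tdT- cells, with a median of -1.12, and 4 fell and 0 rose in tdT+ cells. Of 15 polyamine genes tested, 5 fell and 2 rose in tdT- cells, and 3 fell and 1 rose in tdT+ cells. With the columns of tdT- mouse 1 and tdT+ mouse 7 exchanged, 0% of all genes were called in the tdT by LPS interaction, against 5.17% as labelled. List counts with these columns exchanged are not given. Gatm fell in tdT+ (-2.25, SE 0.51) and in tdT- cells (-4.14, SE 0.56), while Atf4 rose by 1.87 (SE 0.31) and 2.24 (SE 0.31).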
